A study of Homo sapiens with 8 samples.

Results

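H3K27ac peaks around 4 genes of the C/EBP family, CEBPB, CEBPA, CEBPG and CEBPD, were followed in A549 cells after knockdown of CEBPB. The peaks were chosen by position: they overlapped any of 3 windows of hg19. The windows themselves were chosen with earlier results of these data known. The CEBPB window ran from 48.65 to 49.10 Mb on chromosome 20, with the gene at 48.807 to 48.809 Mb. The window of CEBPA and CEBPG ran from 33.70 to 33.95 Mb on chromosome 19, with CEBPA at 33.791 to 33.793 Mb and CEBPG at 33.865 to 33.874 Mb. The CEBPD window ran from 48.55 to 48.75 Mb on chromosome 8, with the gene at 48.649 to 48.651 Mb. Gene positions are known here to the nearest kb only. The windows held 56 of 47370 peaks under siRNA-1, 55 of 48216 under siRNA-2, 56 of 45537 in control 1 and 51 of 45651 in control 2. Peaks of the 4 lists that shared at least 1 bp were merged into regions, and 64 of 60669 regions lay in the windows: 52 around CEBPB, 8 around CEBPA and CEBPG, and 4 around CEBPD.

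A549 is an established human line of lung adenocarcinoma, and the study's title describes it as NRF2-activated. The cells were transfected with CEBPB siRNA-1, with CEBPB siRNA-2 or with a control siRNA and harvested 48 h later. There was 1 H3K27ac library for each CEBPB siRNA and there were 2 for the control siRNA, and the 2 CEBPB siRNAs were taken as replicates of the knockdown. The knockdown libraries differ in siRNA, so they stem from different transfections, and their spread includes any difference between the siRNAs. Whether the 2 controls were grown apart is not given in the labels, so the spread of the controls may be technical. The SDs of knockdown and control therefore need not measure the same thing. How far CEBPB itself was lowered was not measured here. Pairs of values are given in the order of the library numbers. The lists carry no read counts. Depth is therefore unknown, and a missing peak is a missing call, not missing acetylation. With 2 libraries against 2, the exact permutation p cannot go below 0.333. Lung and epithelial marker genes were not placed on the peaks, since no annotation of hg19 was used.

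C/EBP proteins are basic leucine zipper transcription factors that bind DNA as homodimers or as heterodimers with one another and with other leucine zipper proteins. CEBPA is known for differentiation of liver, fat, myeloid and lung epithelial cells, CEBPB and CEBPD for inflammatory and acute-phase transcription, and CEBPG for pairing with ATF4 and with other family members while lacking the activation domains of its relatives. C/EBP genes are known to be regulated by C/EBP proteins themselves in several cell types. H3K27ac is found on nucleosomes beside active promoters and enhancers, so peaks over a start site and peaks far from it are both of interest.

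Promoter sequences are shown for the 3 genes that had one in the set used here, and the peaks at their starts differed. There was a broad region at CEBPB, a single narrow region at CEBPG and weak short regions at CEBPA. The sequences come from RefSeq on GRCh38.p14, another build than that of the peaks, so peaks and letters were not aligned. Each runs 5′ to 3′ on the strand of the gene, from 250 bases before a start to 50 after it. Capitals mark 4 motifs that were searched on both strands. The TATA box was searched as TATAAA. The CCAAT box was searched by its own letters. For the half-site of the cAMP response element the letters were TGACG. The core of the composite element of C/EBP and ATF factors was searched as TGATGCA. GC boxes, with the letters GGGCGG, were searched too and are left in lower case.
CEBPB, second RefSeq start (chr20:50190580-50190879, plus strand): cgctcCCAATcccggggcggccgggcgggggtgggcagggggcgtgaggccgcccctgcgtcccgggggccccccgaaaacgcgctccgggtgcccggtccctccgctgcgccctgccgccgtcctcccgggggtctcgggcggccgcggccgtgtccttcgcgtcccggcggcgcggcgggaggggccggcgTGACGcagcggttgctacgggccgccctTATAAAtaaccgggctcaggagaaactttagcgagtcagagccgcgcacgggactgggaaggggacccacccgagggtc
CEBPA (chr19:33302485-33302784, minus strand): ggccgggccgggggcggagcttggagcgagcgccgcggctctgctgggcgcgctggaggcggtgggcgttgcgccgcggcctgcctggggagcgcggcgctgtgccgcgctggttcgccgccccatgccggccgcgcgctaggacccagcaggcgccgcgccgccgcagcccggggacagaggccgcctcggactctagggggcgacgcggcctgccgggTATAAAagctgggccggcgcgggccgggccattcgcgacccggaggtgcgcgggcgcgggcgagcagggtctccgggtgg
CEBPG, second RefSeq start (chr19:33373863-33374162, plus strand): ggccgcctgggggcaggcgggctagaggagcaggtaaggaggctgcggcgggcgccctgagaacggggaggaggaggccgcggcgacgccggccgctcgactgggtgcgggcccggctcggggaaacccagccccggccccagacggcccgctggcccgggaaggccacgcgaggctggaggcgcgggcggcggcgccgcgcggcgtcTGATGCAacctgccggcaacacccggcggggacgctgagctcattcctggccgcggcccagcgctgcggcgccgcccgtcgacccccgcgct
Positions were counted from the start site. The CEBPB start held a TATA box at -29, a cAMP response element half-site at -57 and a CCAAT box at -245. The CEBPA start held a TATA box at -30, and the CEBPG start held the composite core at -42. Of 35116 promoters of the same length, 11.5% held TATAAA, 24.6% TGACG, 34.6% CCAAT, 2.63% TGATGCA and 45% GGGCGG. The CEBPB start shown held 5 GC boxes, and those of CEBPA and CEBPG held 2 each. The first RefSeq start of CEBPB, which overlaps the second, held the same CCAAT box, and the first start of CEBPG held 2 CCAAT boxes on the opposite strand. Neither the C/EBP letters TTGCNNAA, present in 10.5% of promoters, nor the AP-1 letters TGANTCA, present in 7.71%, occurred in these 5 windows. GC content was 76.7% at the CEBPB start shown, 80.7% at CEBPA and 79.7% at the CEBPG start shown, against a median of 58.7% over all promoters. No sequence is shown for CEBPD, because the promoter set used here held none.

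H3K27ac peaks around CEBPB were extensive in all 4 libraries. Their summed length did not separate the knockdown from the controls in the lists as deposited. Called length, the summed length of the peaks, was 88.3 kb under siRNA-1 and 82.4 kb under siRNA-2, against 90.6 kb in control 1 and 83.4 kb in control 2. This was 18.3 to 20.1% of the window, at or above percentile 99.3 of the 5398 stretches of 450 kb of the genome that held any region, where the median was 6.15 to 6.99 kb. The mean was 85.4 ± 4.21 kb after knockdown and 87 ± 5.08 kb in controls (SD, n = 2 each), a difference of -1.65 kb that was smaller than the spread between replicates (exact permutation test, two-sided, p = 0.667). The sign turned when siRNA-2 was left out (1.33 kb) or control 1 was left out (1.95 kb). The difference was -4.39 kb over peaks with a −log10 q of 10 or more, and -3.58 kb, with no overlap of the groups, when the strongest peaks of each list were taken up to an equal called length.

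The CEBPA and CEBPG window lay near the middle of stretches of its size in called length, and the CEBPD window lay above most of them. Around CEBPA and CEBPG, called length was 4.62 kb under siRNA-1 and 3.45 kb under siRNA-2, against 5.72 kb in control 1 and 4.31 kb in control 2. The means were 4.03 ± 0.829 kb after knockdown and 5.01 ± 0.997 kb in controls (SD, n = 2 each), and the groups overlapped (difference -0.978 kb, exact permutation test, two-sided, p = 0.667). That window lay at percentiles 47.6 to 60.2 of 8606 stretches of 250 kb, where the median was 3.55 to 4.08 kb. Around CEBPD, called length was 14.4 kb under siRNA-1 and 12.3 kb under siRNA-2, against 12.6 kb in control 1 and 10.3 kb in control 2. The means were 13.4 ± 1.49 kb after knockdown and 11.5 ± 1.65 kb in controls (SD, n = 2 each), again with overlap (difference 1.92 kb, exact permutation test, two-sided, p = 0.667). That window lay at percentiles 81.7 to 86.1 of 10155 stretches of 200 kb. In the lists as deposited, none of the 3 windows had both siRNA libraries above or below both controls. The overlap ended with other settings: with only peaks of −log10 q 10 or more for CEBPA and CEBPG (-0.838 kb) and for CEBPD (2.61 kb), and with equal called length for CEBPA and CEBPG (-1.24 kb), for CEBPD (2.23 kb) and for CEBPB. Over the genome, both siRNA libraries of the deposited lists were higher in 31.3% and lower in 27.6% of stretches of 450 kb. The shares were 31% and 27.6% of those of 250 kb, and 30.4% and 27.3% of those of 200 kb. Such shares were not counted for the other settings. In every window the libraries numbered 1 had more called length than those numbered 2 of the same treatment, and the same held over the genome, where siRNA-1 had 70.44 Mb and siRNA-2 61.68 Mb, against 67.90 Mb in control 1 and 62.07 Mb in control 2. Within the numbers, the knockdown minus control differences were -2.27 and -1.03 kb for CEBPB, -1.1 and -0.859 kb for CEBPA and CEBPG, and 1.81 and 2.04 kb for CEBPD.

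**Figure D1:**
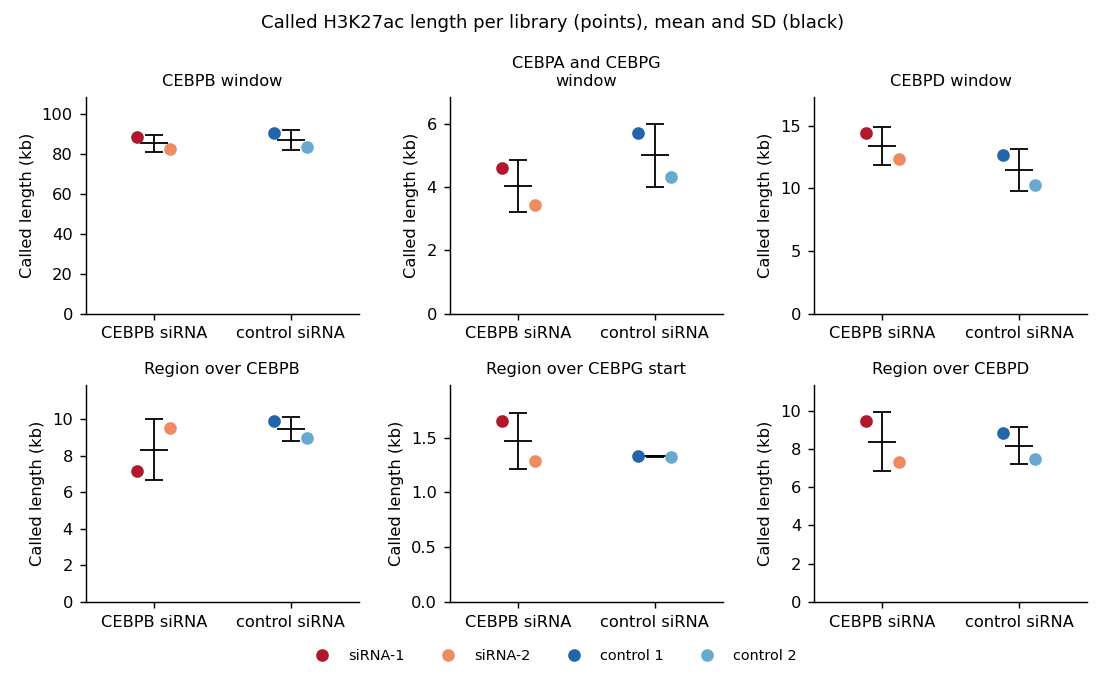
Called H3K27ac length in kb (y axes, from 0) in the 3 windows and in the regions over CEBPB, the CEBPG start and CEBPD. Points are single libraries, black bars the mean and SD of 2 libraries, with CEBPB siRNA left of control siRNA. The groups overlap in all 6 panels.

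Regions were next classed by the libraries that called them. Of the 64 regions, 33 were called in all 4 libraries (51.6%), against 39.8% of all merged regions. These are called kept regions here. A region was lost if both controls and neither siRNA library called it, and 1 of the 36 window regions called in both controls was lost (2.78%), against 13.3% over the genome. A region was gained in the opposite case, and 1 of the 37 window regions called in both siRNA libraries was gained (2.7%), against 13.6% over the genome. Window regions called in a pair had higher values than such regions of the genome. For those called in both siRNA libraries the median of the lower −log10 q was 23.3 in the windows and 17.7 over the genome, and for those called in both controls it was 25.6 in the windows and 16.9 over the genome. The part of this strength in the low shares was not tested. The other 29 regions had mixed calls: 19 were called in 1 library only and 10 in 2 or 3. Those of 1 library were 4 under siRNA-1, 6 under siRNA-2, 6 in control 1 and 3 in control 2. Over the genome, of 60669 regions, those of 1 library were 7951 under siRNA-1, 4840 under siRNA-2, 4718 in control 1 and 2851 in control 2. Leaving out a library loosens both definitions, so the higher counts of lost and gained regions found that way are built in.

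The lost region lay 25.1 kb downstream of CEBPA (chromosome 19, 33765474 to 33765852). It had no peak under either siRNA, and its peaks had folds of 4.82 (control 1) and 3.82 (control 2) and −log10 q values of 7.81 and 4.44. The gained region lay 186 kb downstream of CEBPB (chromosome 20, 48994944 to 48995617). Its folds were 4.37 under siRNA-1 and 7.07 under siRNA-2, with −log10 q values of 5.77 and 11.4, and neither control had a peak there. It was no longer gained when peaks within 1 kb were merged, or with equal called length. Both were weak regions, below the median fold of their lists, 6.35 to 6.64, except for the siRNA-2 value of the gained region.

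CEBPB, the target of the siRNAs, was covered by H3K27ac in both siRNA libraries. The region over the gene (chromosome 20, 48802635 to 48812765) was called over 7.15 kb under siRNA-1 and 9.5 kb under siRNA-2, against 9.89 kb in control 1 and 8.96 kb in control 2. It covered the whole gene in all 4 libraries. The mean was 8.32 ± 1.66 kb after knockdown and 9.43 ± 0.656 kb in controls (SD, n = 2 each), a difference within the spread (exact permutation test, two-sided, p = 0.667). Its fold enrichment at the summit, the authors' own ratio, was 29.1 under siRNA-1 and 28.3 under siRNA-2, against 37.4 in control 1 and 44.1 in control 2. Because each list was made on its own, folds were not divided between lists. Regions were ranked instead by fold within each list, over the same 24133 regions called in all 4 libraries, with rank 1 the highest. The CEBPB region ranked 4214 under siRNA-1 and 3313 under siRNA-2, against 2224 in control 1 and 1187 in control 2, so it stood lower in both siRNA lists. Of all kept regions, 28.8% ranked lower in both siRNA lists than in both control lists, and 23.3% did so by at least as many places between the mean ranks as the CEBPB region. Later shares of kept regions standing as many places higher or lower are counted in the same way, among regions whose ranks did not overlap between the groups. Under siRNA-1 the highest summit lay at the gene's start as far as that is placed here, at 48807190. It lay before the start under siRNA-2 (48803957), in control 1 (48803891) and in control 2 (48803740), at -3.04, -3.11 and -3.26 kb from it. Downstream, no kept region followed for 67.2 kb.

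**Figure D2:**
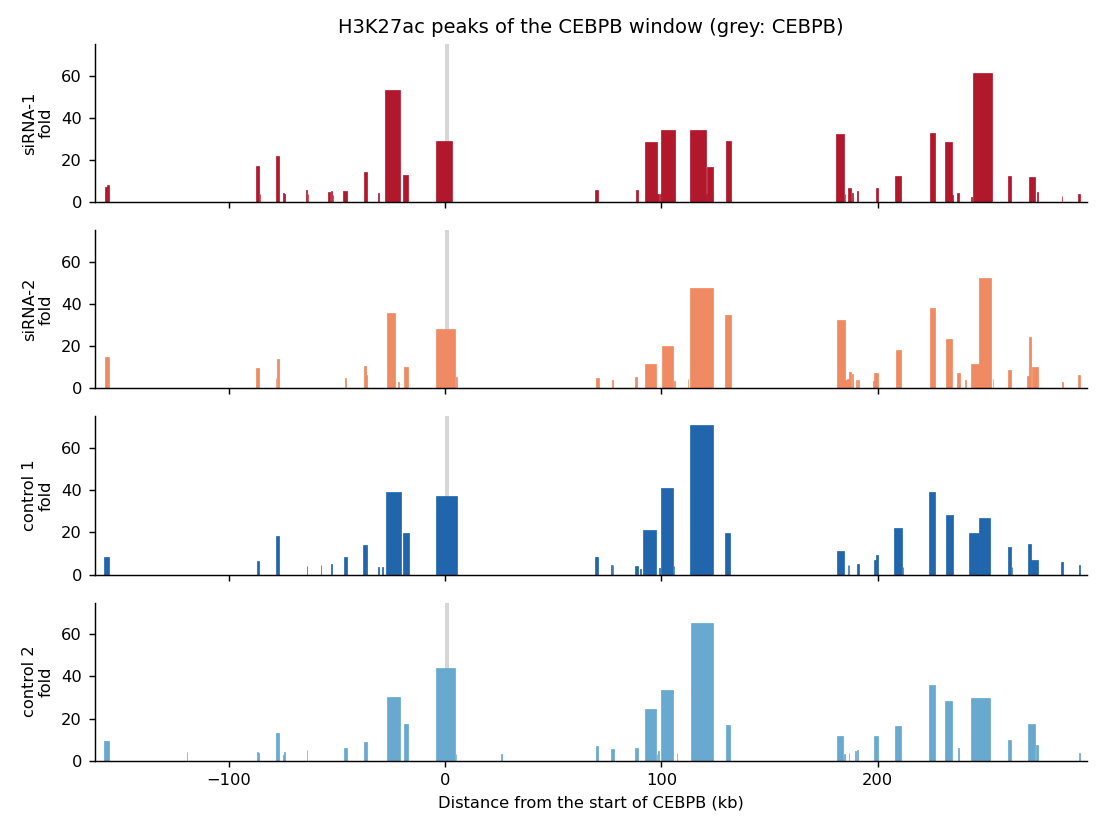
H3K27ac peaks of the CEBPB window by distance from the start of CEBPB (x axis, kb) and fold enrichment at the summit (y axis), one row per library, siRNA libraries above controls. Each bar spans a peak and has the height of its summit. The tallest bar in both siRNA rows (61.2 and 52.4) lies farther right than the tallest bar in both control rows (70.8 and 65.5).

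The kept region with the highest fold in the CEBPB window was not the same in the siRNA lists as in the control lists. In both controls it was a region 111 kb downstream of CEBPB (chromosome 20, 48920140 to 48930920), and under both siRNAs a region 240 kb downstream (chromosome 20, 49049200 to 49059716). The region at 111 kb had folds of 34.2 under siRNA-1 and 47.5 under siRNA-2, against 70.8 in control 1 and 65.5 in control 2. Its ranks were 3165 and 830 under the siRNAs, against 205 and 224 in the controls. Its called length was 10.2 and 10.3 kb under the siRNAs and 10.6 and 10.2 kb in the controls. Under siRNA-1 it was split into 3 peaks, and in the other libraries it was a single peak. The region at 240 kb had folds of 61.2 under siRNA-1 and 52.4 under siRNA-2, against 26.6 in control 1 and 29.6 in control 2. Its ranks were 617 and 531 under the siRNAs, against 4159 and 2885 in the controls, while its called length was slightly lower, at 9.0 and 8.91 kb under the siRNAs and 9.46 and 9.05 kb in the controls. The ranks of both regions separated the groups without overlap, in opposite directions. Each region was picked by these same folds, as the highest of the window in a pair of lists. Such a choice favours a lower standing in the other pair, so the opposite directions are not a separate result. Over the genome, 26.7% of kept regions ranked higher in both siRNA lists. The mean ranks of the region at 111 kb differed by 1783 places, and 24.2% of kept regions stood at least as many places lower. For the region at 240 kb the difference was 2948 places, and 19.1% stood at least as many places higher. Places are not equal steps of fold along a list. The region 67.2 kb downstream of CEBPB, with folds of 4.94 to 8.2, moved by 3846 places. Such shares therefore do not measure the size of a difference in fold.

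Other regions downstream of CEBPB also stood at different ranks. A region 179 kb downstream (chromosome 20, 48987936 to 48992026) had folds of 32.5 under siRNA-1 and 32.6 under siRNA-2, against 11.4 in control 1 and 11.7 in control 2. Its ranks were 3472 and 2482 under the siRNAs, against 12437 and 11159 in the controls, and 4.69% of all kept regions stood at least as many places higher. Its called length was 3.9 and 3.82 kb under the siRNAs, against 3.07 and 3.19 kb in the controls. Beside it lay a region 184 kb downstream that was called over 1.54 and 1.74 kb under the siRNAs, against 0.56 and 0.238 kb in the controls, and next to that the region at 186 kb described as gained, whose call depended on the merging. A region 128 kb downstream had folds of 29.1 under siRNA-1 and 34.7 under siRNA-2, against 19.8 in control 1 and 16.8 in control 2. By its mean rank, 16.2% of kept regions stood at least as many places higher. The kept regions at 128, 179 and 184 kb were both longer and ranked higher in both siRNA libraries. Folds at 184 kb were low, at 6.57 and 7.84 under the siRNAs, against 4.69 and 3.62 in the controls. Among all kept regions, 26.9% were longer and 26.7% ranked higher in this way, and the share doing both was not counted. The next kept region, at 188 kb, was shorter, at 0.326 and 0.678 kb under the siRNAs, against 1.1 and 0.997 kb in the controls. The region 196 kb downstream was shorter too, with folds of 6.71 under siRNA-1 and 7.16 under siRNA-2, against 9.42 in control 1 and 11.7 in control 2. Its mean rank was lower by 5550 places under the siRNAs, and 10.1% of kept regions stood at least as many places lower. The region at 98 kb was also ranked lower under both siRNAs, at 3122 and 6016, against 1807 and 2297 in the controls. For this region, 21.3% of kept regions stood at least as many places lower. The region at 222 kb, among the 3 highest of the window in both controls and under siRNA-2, did not separate the groups by rank (3385 and 1652 under the siRNAs, against 2022 and 2004 in the controls).

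Upstream of CEBPB, the region at 20.2 kb (chromosome 20, 48779046 to 48786809) was second in the window under siRNA-1. Its folds were 53.2 under siRNA-1 and 35.7 under siRNA-2, against 39.1 in control 1 and 30.1 in control 2. Its ranks were higher under the siRNAs (1084 and 1974, against 2023 and 2806 in the controls). By mean rank, 25.5% of kept regions stood at least as many places higher. The neighbour at 16.9 kb had folds of 12.7 under siRNA-1 and 10.1 under siRNA-2, against 19.7 in control 1 and 17.7 in control 2. Its ranks were 11664 and 14088 under the siRNAs, against 6648 and 6727 in the controls, and 8.23% of kept regions stood at least as many places lower. A region 85.9 kb upstream had folds of 17.3 under siRNA-1 and 9.74 under siRNA-2, against 6.42 in control 1 and 4.2 in control 2. Its mean rank was 9492 places higher under the siRNAs, and 3.94% of all kept regions stood at least as many places higher. RefSeq's gene order places PEDS1 and UBE2V1 before CEBPB and PTPN1 after it as protein-coding neighbours. Which region lies in which gene was not determined.

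In some regions the summits lay elsewhere. In the region 240 kb downstream, the highest summits lay at 49056913 under siRNA-1 and 49056940 under siRNA-2, against 49058025 in control 1 and 49057871 in control 2. In a region 89.7 kb downstream (chromosome 20, 48898687 to 48905926) they lay at 48902920 and 48902992 under the siRNAs, against 48900822 and 48900861 in the controls. The smallest gap between a siRNA and a control summit was 0.931 kb in the first and 2.06 kb in the second of these, against 27 and 154 bp within the pairs of the first and 72 and 39 bp within those of the second. These were 2 of 33 kept regions of the windows whose highest summits lay 500 bp or more apart between the groups and under 500 bp apart within each pair. Over the genome 3.21% of kept regions did so. That share takes in short regions, which have less room for such a gap. The median spread of the summits between libraries was 325 bp in the kept regions of the windows and 205 bp over all kept regions. The rule was set after the summits had been seen.

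CEBPA showed weak acetylation in all libraries. Near its 5′ end lay 2 short regions. The nearer began 0.135 kb past the end as placed here, so whether it lies over the start or before it cannot be told with positions to the nearest kb. This region (chromosome 19, 33793136 to 33793474) had folds of 4.85 under siRNA-1 and 3.76 under siRNA-2, against 3.15 in control 1 and no peak in control 2. The other, 0.609 kb past that end, was called in all 4 libraries, with folds of 4.41 under siRNA-1 and 6.35 under siRNA-2, against 4.65 in control 1 and 5.37 in control 2. Its called length was 0.407 ± 0.127 kb after knockdown and 0.384 ± 0.0778 kb in controls (SD, n = 2 each), a difference within the spread. Downstream of CEBPA lay 3 kept regions. The nearest, at 5.79 kb (chromosome 19, 33783251 to 33785208), was called over 0.799 and 0.777 kb under the siRNAs, against 1.88 and 1.48 kb in the controls, and ranked lower in both siRNA lists. The region at 7.9 kb had folds of 10.1 under siRNA-1 and 5.64 under siRNA-2, against 5.4 in control 1 and 7.11 in control 2, highest under siRNA-1. The region at 19 kb ranked lower under the siRNAs (22945 and 23105, against 21569 and 18843 in the controls). For the regions at 5.79 kb and at 19 kb alike, 20.1% of kept regions stood at least as many places lower.

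CEBPG had a single strong region, at its start. The region (chromosome 19, 33863982 to 33865634) had folds of 24.3 under siRNA-1 and 17.5 under siRNA-2, against 23.8 in control 1 and 22.7 in control 2. Its ranks were 5521 and 7500 under the siRNAs, against 5002 and 4636 in the controls, a difference of 1692 places between the mean ranks, and 24.7% of kept regions stood at least as many places lower. The summits of the 4 libraries lay within 75 bp of each other. Called length was 1.65 kb under siRNA-1 and 1.29 kb under siRNA-2, against 1.33 kb in control 1 and 1.32 kb in control 2. The siRNA-1 library alone was longer (1.47 ± 0.258 kb after knockdown and 1.33 ± 0.00636 kb in controls, SD, n = 2 each, exact permutation test, two-sided, p = 1). A second, weak region in the gene (chromosome 19, 33868073 to 33868340) was called in control 1 only, with a fold of 2.98. Between CEBPA and CEBPG no library had a peak for 69.9 to 70.1 kb.

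CEBPD had a broad region over the gene and 2 kept regions apart from it, and these 2 were longer in both siRNA libraries. So were 26.9% of all kept regions of the genome. The region over the gene (chromosome 8, 48641944 to 48652060) covered all of it in the 4 libraries, with folds of 29.3 under siRNA-1 and 36.7 under siRNA-2, against 32.5 in control 1 and 18.6 in control 2. Called length there was 9.46 kb under siRNA-1 and 7.3 kb under siRNA-2, against 8.83 kb in control 1 and 7.47 kb in control 2. The groups overlapped (8.38 ± 1.53 kb after knockdown and 8.15 ± 0.965 kb in controls, SD, n = 2 each). A region 75.7 kb away (chromosome 8, 48571136 to 48573332) had folds of 23 under siRNA-1 and 15.1 under siRNA-2, against 9.74 in control 1 and 6.73 in control 2. Its ranks were 5938 and 9064 under the siRNAs, against 14269 and 17994 in the controls, and 4.94% of kept regions stood at least as many places higher. It was called over 2.2 and 1.92 kb under the siRNAs, against 1.65 and 1.58 kb in the controls. A region 51.4 kb away (chromosome 8, 48594787 to 48597559) was called over 2.77 and 2.58 kb under the siRNAs, against 2.13 and 1.24 kb in the controls, with folds of 11.4 and 10.1 under the siRNAs and 8.17 and 6.55 in the controls. The region at 51.4 kb ranked higher under both siRNAs, and 15.8% of kept regions stood at least as many places higher. One more region, 82.9 kb away, was called under siRNA-2 only, with a fold of 6.63. All 4 regions lay on the side of lower coordinates or over the gene, and on the other side the next peak was 202 to 220 kb away. By RefSeq's order SPIDR precedes CEBPD and PRKDC follows it.

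**Figure D3:**
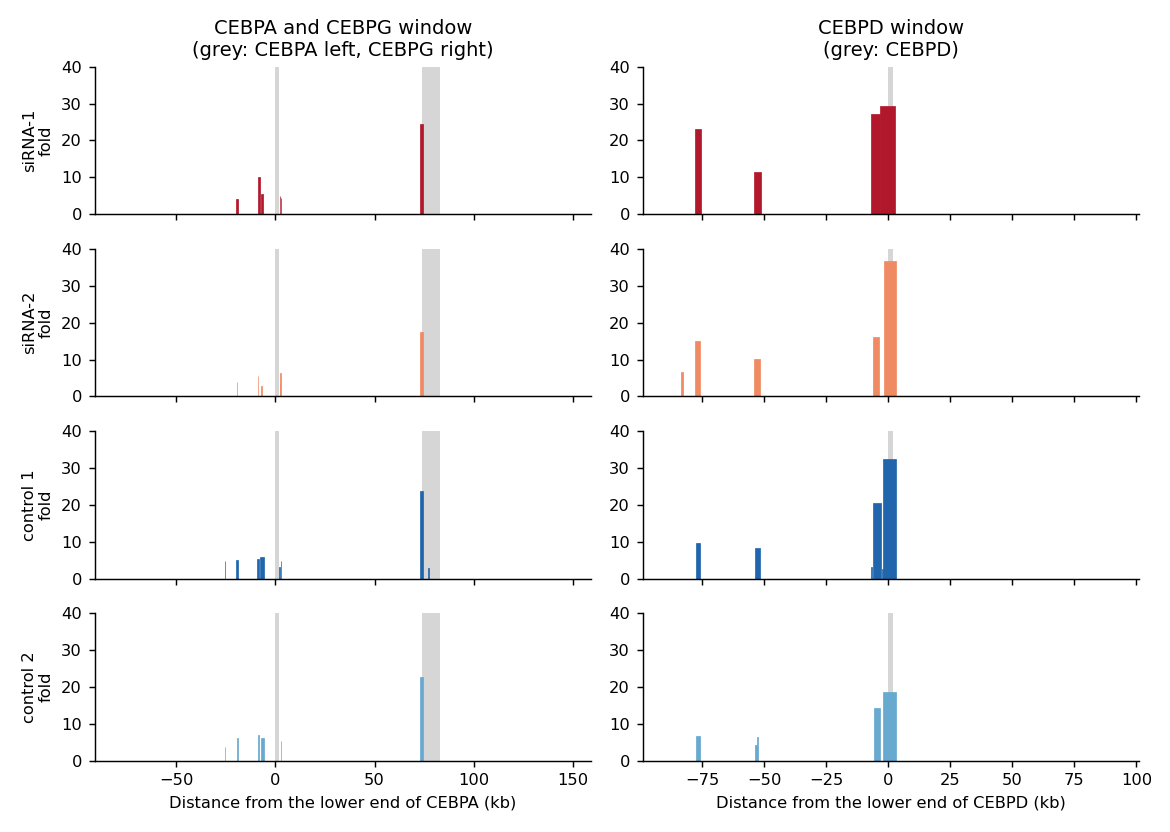
H3K27ac peaks around CEBPA and CEBPG (left) and CEBPD (right) by distance from the lower end of CEBPA or CEBPD (x axes, kb) and fold enrichment at the summit (y axes), siRNA libraries above controls. Each bar spans a peak and has the height of its summit. The CEBPG start carries the only tall bar on the left, and the bar 75.7 kb from CEBPD is taller in both siRNA rows (23 and 15.1) than in both control rows (9.74 and 6.73).

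Across the 33 kept regions, differences of length went both ways at about the rate of the genome. Called length was higher in both siRNA libraries than in both controls in 9 regions (27.3%, against 26.9% of all kept regions) and lower in 9 (27.3%, against 25.6%). In the other 15 the groups overlapped. The 9 longer regions were 7 around CEBPB and 2 around CEBPD. Besides those described, they included the region 76.6 kb upstream of CEBPB, where 1.54 ± 0.0368 kb was called after knockdown and 1.45 ± 0.0643 kb in controls (SD, n = 2 each). They also included those 67.2 kb downstream, with 1.41 ± 0.139 kb after knockdown and 1.19 ± 0.12 kb in controls (SD, n = 2 each), and 291 kb downstream, with 0.899 ± 0.0396 kb after knockdown and 0.725 ± 0.128 kb in controls (SD, n = 2 each). The 9 shorter regions were 8 around CEBPB and 1 downstream of CEBPA. Around CEBPB they lay 155 kb upstream and 85.7, 188, 196, 206, 222, 240 and 258 kb downstream. The differences ranged from -0.821 kb at 196 kb to -0.258 kb at 222 kb. At 155 kb upstream, 1.76 ± 0.422 kb was called after knockdown and 2.17 ± 0.0863 kb in controls (SD, n = 2 each). The region 206 kb downstream was called over 2.43 ± 0.0276 kb after knockdown and 3.12 ± 0.412 kb in controls (SD, n = 2 each). At 188 kb, 0.326 and 0.678 kb were called under the siRNAs, against 1.1 and 0.997 kb in the controls. The region at 85.7 kb was called over 0.874 and 0.971 kb under the siRNAs, against 1.74 and 1.05 kb in the controls, and that at 258 kb over 1.23 and 1.17 kb, against 1.39 and 1.57 kb in the controls. Each longer or shorter region reached the smallest exact permutation p of 0.333 (two-sided) and no smaller one. Leaving out a library loosens the rule of no overlap, so the higher counts found that way are built in. They do not show that the counts depend on particular libraries.

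By rank, 8 of the 33 kept regions stood higher in both siRNA lists (24.2%, against 26.7% of all kept regions) and 11 lower (33.3%, against 28.8%). Those ranked higher were 6 of 25 around CEBPB and 2 of 3 around CEBPD. Those ranked lower were 8 of 25 around CEBPB and 3 of 5 around CEBPA and CEBPG. With shares this close to the genome's, neither count sets the C/EBP windows apart. Length and rank did not always go together. The region 67.2 kb downstream of CEBPB was longer but ranked lower under both siRNAs (20037 and 21761, against 16351 and 17754 in the controls), and the region at 240 kb was shorter but ranked higher. For the region at 67.2 kb, 15.9% of kept regions stood at least as many places lower. Leaving out a library loosens the rule for ranks too, so the higher counts found that way are built in.

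**Figure D4:**
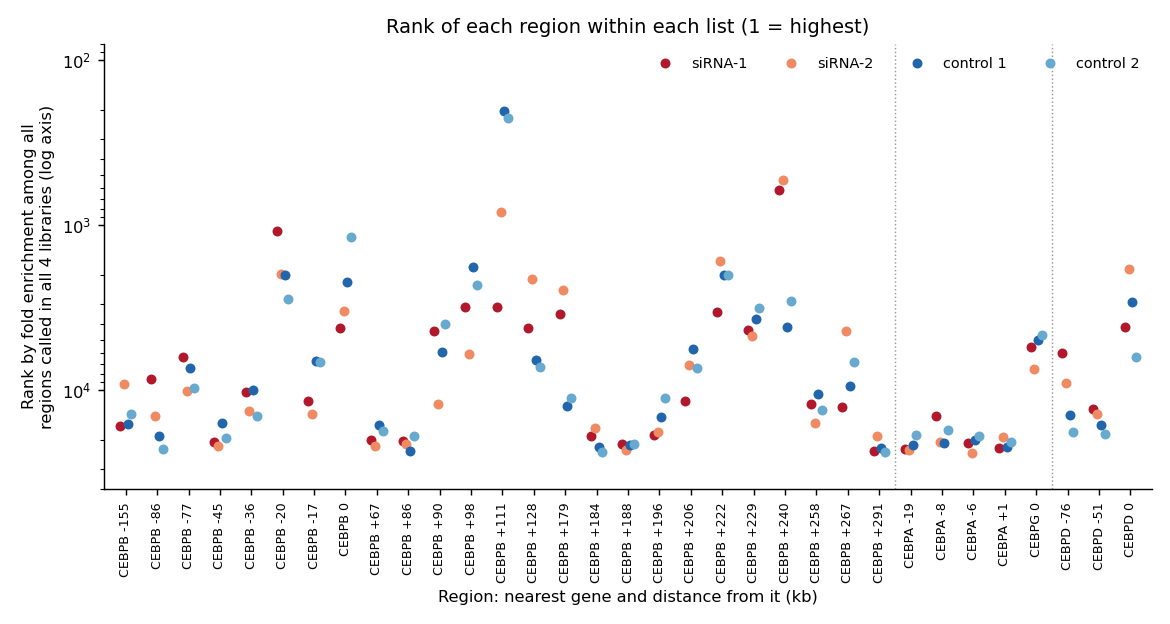
Rank by fold enrichment (y axis, log scale, 1 = highest) of the 33 kept regions of the windows among the 24133 regions called in all 4 libraries. The x axis names the nearest gene and the distance from it in kb (minus: lower coordinates), and each point is a library. The region 111 kb from CEBPB is highest in both controls (205 and 224), the region at 240 kb in both siRNA lists (617 and 531).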

How the data were processed

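H3K27ac was measured by chromatin immunoprecipitation and sequencing of single-end reads of 101 bases in 4 libraries. The 4 input libraries were not used here. The submitters' processing notes name hg19, MACS2 2.2.7.1, BWA 0.7.17 and SAMtools 1.7.0. Options, and any use of the inputs in peak calling, were not given in the sources used here. The deposited lists, 1 per library, give for each peak positions and a summit offset in bp, a fold enrichment at the summit (a ratio), and −log10 p and −log10 q. These are the authors' values, and the lowest −log10 q of a list was 1.3 to 1.34.

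Merging joined peaks of chromosomes 1 to 22 and X that overlapped by 1 bp or more. Called length was compared by exact permutation, two-sided. Regions were named by rule: those within 5 kb of a gene, all lost, gained, longer or shorter ones, and the 3 with the highest fold per window and list. Members, windows and lists were chosen with earlier results of these data known. Ranks and summit shifts were added after seeing the data, as were the further regions named for them. Alternatives were a −log10 q of 10 or more, equal called length, peaks merged within 1 kb, reciprocal overlap of 50%, 100 kb around the genes, the replicate block and leaving out each library. Merging and classing were tested on simulated lists. Those lists held a single peak per region and library, so split peaks and regions called in a single library were not covered. Python 3.11.15 and matplotlib 3.10.9 were used.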

Additional observations from a re-analysis of the deposited data

How the results depend on the processing

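Around CEBPB the difference in called length kept its sign with a −log10 q of 10 or more, equal called length or 100 kb on either side of the gene, and ranged from -5.24 to 1.95 kb without each library in turn; the sign turned without siRNA-2 (1.33 kb) and without control 1 (1.95 kb). It ranged from -1.68 to -0.273 kb for CEBPA and CEBPG and from 0.752 to 3.09 kb for CEBPD. With equal called length (61.68 Mb per list) all 3 windows separated the groups (exact permutation p = 0.333 each). The differences were -3.58, -1.24 and 2.23 kb for CEBPB, CEBPA with CEBPG, and CEBPD. How many stretches of the genome separate the groups at this setting was not counted. With the replicate block, pairing libraries by their number, the differences were -1.65, -0.978 and 1.92 kb (exact permutation p = 0.5, the smallest that 2 pairs can give). The labels do not say what a number shares, and deviations of the same-numbered libraries correlated at r = 0.0642 over kept regions. Reciprocal overlap gave 2 lost and 2 gained regions. Requiring −log10 q values of at least 10 in the calling pair left 0 lost and 0 gained, because fewer regions qualify. Gained regions were 0 with peaks merged within 1 kb and 0 with equal called length. With only peaks of −log10 q 10 or more, other regions were lost (67.2 kb downstream of CEBPB) and gained (184 kb downstream), 1 each. Both were called in all 4 libraries of the deposited lists, and the cutoff removed the calls of 1 group. The highest −log10 q at 67.2 kb was 9.58 and 7.01 under the siRNAs, against 17.7 and 12.4 in the controls. At 184 kb it was 11.9 and 14.5 under the siRNAs, against 6.32 and 3.18 in the controls. At this setting 4 kept regions were longer, for reasons that were not tested. Omitting a library loosens every rule, so counts at or above the main ones are built in. Over the fits that omit 1 library, the lost regions numbered 2 to 7, the gained from 2 to 7, longer from 9 to 19, shorter from 10 to 21, ranked higher from 11 to 14 and ranked lower from 14 to 16.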
